A study of Mus musculus with 18 samples.

Results

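The Hippo pathway and its TEAD transcription factors were followed through 10 genes in mouse blastocysts, oocytes and cumulus cells. Cumulus cells are somatic cells of the follicle that enclose the oocyte. The members were the 4 TEAD genes Tead1, Tead2, Tead3 and Tead4, the coactivator genes Yap1 and Wwtr1 (which encodes TAZ), the kinase genes Lats1 and Lats2, and the upstream regulators Amotl2 and Nf2. They were chosen by symbol and are 10 of the 52550 genes listed. Lats2 was listed under 2 identifiers. The row of ENSMUSG00000021959 was used, because the other row stood near 0 in every library.

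The 18 libraries were made from C57BL/6 mice and formed 6 groups of 3 libraries: blastocysts of the PM2.5 group, blastocysts of the filtered-air group, oocytes of the PM2.5 group, oocytes of the filtered-air group, cumulus cells of the PM2.5 group and cumulus cells of the filtered-air group. PM2.5 is fine particulate matter, and the filtered-air mice were the controls of the exposure. The labels name no genetic modification. The sources used here state neither the animals' age, nor the dose or length of exposure, nor the number of cells per library, nor whether replicates came from different animals. A p-value then reflects only how far these libraries vary, and some of that variation may be technical.

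In the Hippo pathway, a kinase cascade ends in LATS1 and LATS2, which phosphorylate YAP and TAZ and keep them out of the nucleus. Without that phosphorylation, YAP and TAZ enter the nucleus and switch on genes as partners of the TEAD proteins. In the mouse embryo before implantation, TEAD4 and YAP drive trophectoderm genes such as Cdx2 in outer cells, while angiomotins and NF2 turn on LATS in inner cells. Transcript levels, which are what was measured here, carry no information on phosphorylation or on where a protein lies in the cell.

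All levels are the deposited log2(x + 1) values, where x is the authors' normalized count, and all differences are differences of these values. A difference of low values understates the fold change. A library had 16426 to 17987 genes above 0. Read depth is unknown. Correlations across genes ran from 0.978 to 0.987 within a group and from 0.573 to 0.839 between tissues. Markers of the labelled tissues were present: a mean of at least 3 in both exposure groups was reached by 5 of 5 trophectoderm markers in blastocysts, 7 of 8 oocyte markers in oocytes and 5 of 7 granulosa and cumulus markers in cumulus cells. Markers of other tissues also reached that mean. In cumulus cells these were 3 of 8 oocyte and 2 of 5 trophectoderm markers in both exposure groups. Of 5 leukocyte markers, 3 reached it in PM2.5 and 4 in filtered-air cumulus cells. In oocytes 2 of 5 trophectoderm markers did, and in blastocysts 1 of 7 granulosa and cumulus markers. These are bulk libraries, in which fewer cells of a type and less RNA per cell cannot be told apart.

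**Figure D1:**
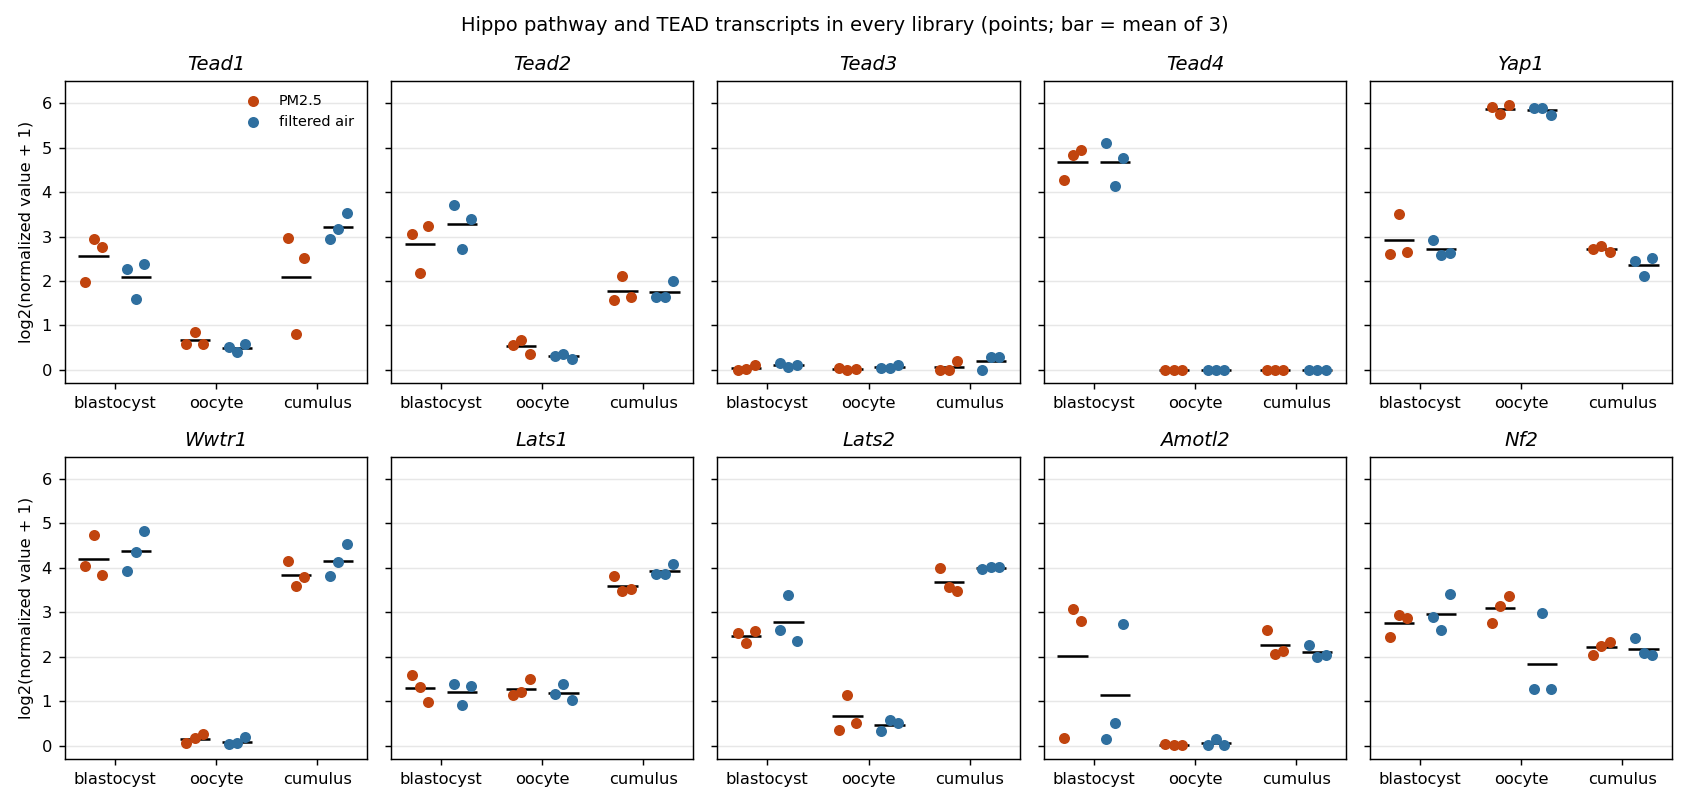
Level of the 10 genes in every library. The y axis is log2(normalized value + 1), points are libraries, bars are means of 3, and PM2.5 stands left of filtered air in each tissue. Tead4 was above 0 in blastocysts alone among the 3 tissues, Yap1 was highest in all 6 oocyte libraries, and Lats1 was highest in all 6 cumulus libraries.

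The 3 tissues differed in the levels of their Hippo transcripts, given here as means over both exposure groups. Blastocysts had Tead4, Wwtr1 and Tead2 highest, then Nf2 (2.86), Yap1 (2.82), Lats2 (2.63) and Tead1 (2.32). Oocytes had Yap1 at the highest level of any tissue and Nf2 at 2.47, with little Wwtr1 or Tead. Cumulus cells had Wwtr1, Lats2 and Lats1 highest, then Tead1 (2.66), Yap1 (2.54), Nf2 (2.19) and Amotl2 (2.19). When every member was tested without a filter on low values, 7 of 10 differed between blastocysts and oocytes in the PM2.5 libraries, where 58.3% of all genes did, and 7 of 10 in the filtered-air libraries, where 58.2% of all genes did. Between blastocysts and cumulus cells, 4 of 10 differed in the PM2.5 libraries and 5 of 10 in the filtered-air libraries, with a background of 43.7% in each. Between oocytes and cumulus cells, 8 of 10 differed in the PM2.5 libraries and 7 of 10 in the filtered-air libraries, with backgrounds of 59.9% and 58.5%. The member shares lie near the shares of all genes, so the counts show nothing particular to these genes (limma, Benjamini-Hochberg adjusted p under 0.05 over 24003 genes). The contrasts in PM2.5 libraries and those in filtered-air libraries share no library. They do share the same estimate of the spread, taken from all 18 libraries, so their p-values are not independent.

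Gene positions below are those of the RefSeq annotation of GRCm38.p6 (mm10). Tead4 (chr6:128227143-128300813), the TEAD factor needed to form the trophectoderm, was detected in blastocysts only. Its level was 4.28, 4.83 and 4.96 in the 3 PM2.5 blastocyst libraries, against 5.11, 4.14 and 4.77 in the filtered-air blastocyst libraries. It was listed at 0 in all 6 oocyte and all 6 cumulus libraries, so no fold is given for it. None of 10 housekeeping genes was at 0 in any library, but that check does not cover transcripts near the detection limit. Because read depth is unknown, a value of 0 does not show absence. The 2 exposure groups of blastocysts overlapped fully, with means of 4.69 ± 0.36 in PM2.5 and 4.67 ± 0.49 in filtered air (SD, n = 3 each).

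Tead2 (chr7:45215792-45233468), a TEAD factor known from the early embryo, was also highest in blastocysts. It stood at 3.06, 2.18 and 3.25 in PM2.5 blastocysts and at 3.71, 2.73 and 3.4 in filtered-air blastocysts. Oocytes were lowest, with 0.35 to 0.68 in PM2.5 and 0.24 to 0.35 in filtered air, and cumulus cells lay between, with 1.57, 2.11 and 1.63 in PM2.5 and 1.63, 1.64 and 2.0 in filtered air. No library of one tissue reached into the range of the next. Against oocytes, Tead2 was higher in blastocysts by 2.30 in PM2.5 and 2.98 in filtered air (SE 0.27 each; limma adjusted p = 3.17e-07 and 1.06e-08). Against cumulus cells it was higher in blastocysts by 1.06 in PM2.5 and 1.52 in filtered air (limma adjusted p = 0.00201 and 7.46e-05). Oocytes were below cumulus cells by a difference of -1.24 in PM2.5 and -1.46 in filtered air (limma adjusted p = 0.000322 and 6.81e-05), which under quantile normalization became -0.28 in PM2.5 and -0.655 in filtered air (limma adjusted p = 0.382 and 0.0499).

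Tead1 (chr7:112679356-112906784), a broadly expressed TEAD factor, had a different order. Blastocysts had 1.98, 2.95 and 2.76 in PM2.5 and 2.27, 1.59 and 2.39 in filtered air. Oocytes stayed between 0.59 and 0.85 in PM2.5 and between 0.40 and 0.58 in filtered air. PM2.5 cumulus cells had 2.97, 0.80 and 2.52, and filtered-air cumulus cells, the highest group, had 2.94, 3.18 and 3.53. Replicate 2 of the PM2.5 cumulus cells stood apart from its group and lay within the range of the PM2.5 oocytes. Without a filter on low values, Tead1 was higher in blastocysts than in oocytes by 1.89 in PM2.5 and 1.59 in filtered air (SE 0.43 each; limma adjusted p = 0.00122 and 0.00453). The difference between oocytes and cumulus cells was -1.42 in PM2.5 and -2.72 in filtered air (limma adjusted p = 0.00905 and 4.44e-05). The PM2.5 value lost its call under quantile normalization, where it was -0.97 with limma adjusted p = 0.0635, and without PM2.5 cumulus replicate 1, where it was -0.99 with limma adjusted p = 0.0567. Blastocysts differed from cumulus cells by 0.47 in PM2.5, which did not pass, and by -1.13 in filtered air (limma adjusted p = 0.435 and 0.0433). The filtered-air call was lost when any of 12 of the 18 libraries was left out, with values from -1.28 to -0.88 over all 18. Some of these libraries, among them every oocyte library, belong to neither group. Leaving them out kept the value at -1.13, and the p-value moved through the shared fit. Tead3 (chr17:28331671-28350805), the remaining family member, stayed at or below 0.30 in all 18 libraries and was called in no tissue contrast.

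Put together on the linear scale, the summed value x of the 4 Tead genes was 28.7, 37.6 and 44.4 in PM2.5 blastocysts and 49.7, 24.3 and 40.1 in filtered-air blastocysts. Oocytes had 0.78 to 1.4 in PM2.5 and 0.627 to 0.758 in filtered air, and cumulus cells had 8.82, 4.07 and 6.96 in PM2.5 and 8.75, 10.4 and 13.8 in filtered air. The tissues did not overlap in this sum. Tead4 made up 64.1% to 72.8% of it in PM2.5 blastocysts and 65.4% to 68.4% in filtered-air blastocysts. In cumulus cells Tead1 held 77.7%, 18.3% and 67.8% in PM2.5 and 76.0% to 77.5% in filtered air, and in the PM2.5 library with 18.3% the share of Tead2 was 81.7%. These shares rest on levels of different genes. The sources do not state whether the values were scaled by transcript length. They fell with length by a log-log slope of -0.36 (SE 0.04, over 2108 genes with 1 annotated transcript), so a share is read here across libraries and not as a ratio of molecules.

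**Figure D2:**
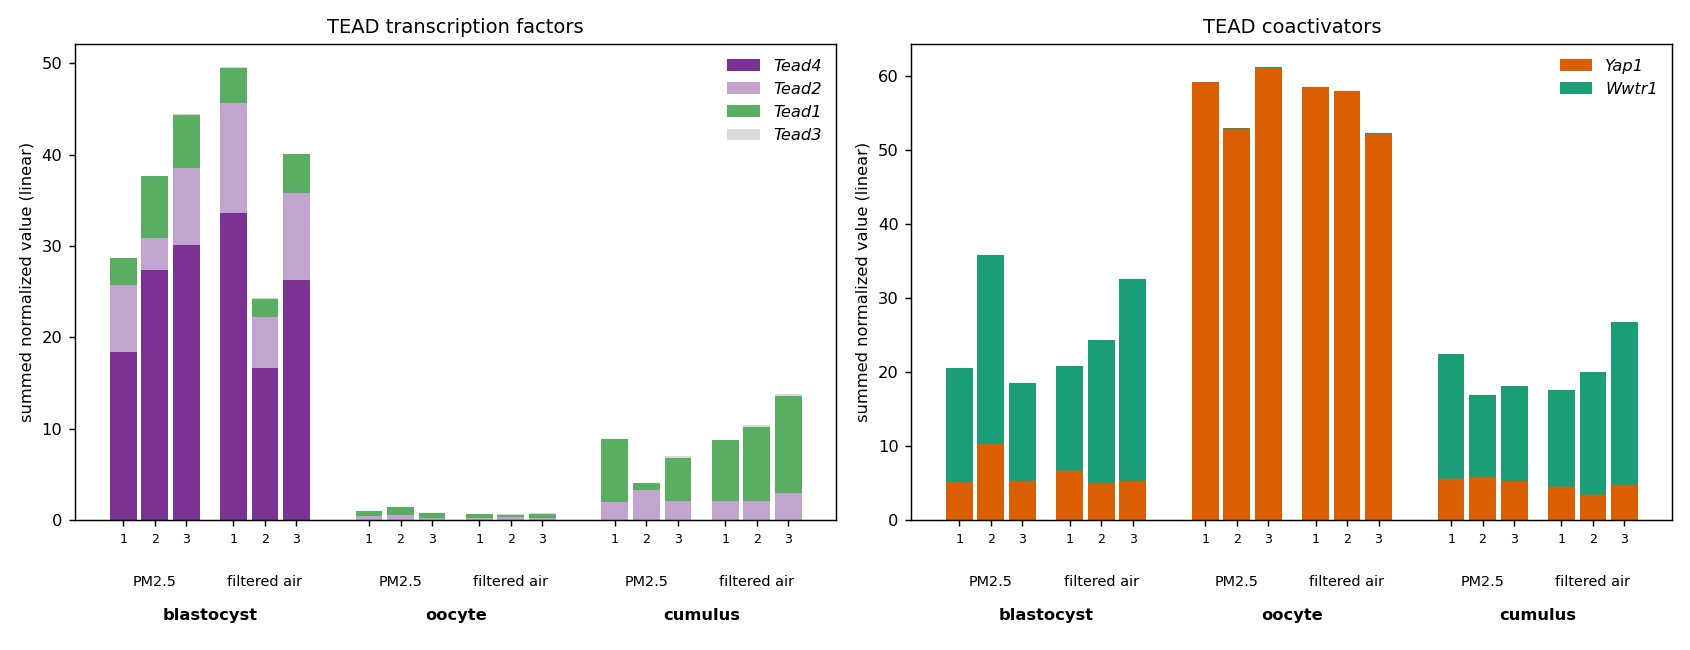
Summed linear values x of the 4 Tead genes (left) and of Yap1 and Wwtr1 (right), one stacked bar per library, with replicate numbers on the x axis and PM2.5 left of filtered air. Tead4 fills most of each blastocyst bar, from 64.1% to 72.8%, and Yap1 fills at least 99.7% of each oocyte bar.

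The coactivators Yap1 (chr9:7931999-8004638) and Wwtr1 (chr3:57455644-57575910), whose proteins YAP and TAZ are close relatives, ran in opposite directions. Yap1 stood at 2.60, 3.50 and 2.66 in PM2.5 blastocysts and at 2.93, 2.58 and 2.64 in filtered-air blastocysts. Oocytes had 5.91, 5.75 and 5.96 in PM2.5 and 5.90, 5.88 and 5.74 in filtered air, and cumulus cells had 2.72, 2.78 and 2.66 in PM2.5 and 2.45, 2.11 and 2.52 in filtered air. All 6 oocyte libraries were above all others. Yap1 was lower in blastocysts than in oocytes, by a difference of -2.95 in PM2.5 and -3.12 in filtered air (SE 0.20 each; limma adjusted p = 2.20e-10 and 1.03e-10), and higher in oocytes than in cumulus cells by 3.15 and 3.48 (limma adjusted p = 9.27e-11 and 2.59e-11). Blastocysts and cumulus cells differed by 0.20 in PM2.5 and 0.35 in filtered air, with 95% intervals of -0.22 to 0.62 and -0.07 to 0.77, and neither passed (limma adjusted p = 0.387 and 0.123). Without PM2.5 blastocyst replicate 2, the filtered-air difference of 0.35 passed (limma adjusted p = 0.0326).

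Cumulus libraries can hold oocyte RNA, which was measured beside Yap1. The oocyte growth factor Gdf9 stood in cumulus cells at 0.396% to 0.676% of its mean linear level in oocytes in PM2.5 and at 0.358% to 0.485% in filtered air. Yap1 stood at 9.24% to 10.1% of its oocyte level in PM2.5 cumulus cells and at 5.92% to 8.42% in filtered-air cumulus cells, a larger share than that of Gdf9 in every library. The part of oocyte RNA in the cumulus Yap1 values was not tested.

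Wwtr1 showed the reverse picture. Blastocysts had 4.05, 4.73 and 3.83 in PM2.5 and 3.93, 4.35 and 4.83 in filtered air. Wwtr1 was nearly absent from oocytes, at 0.05, 0.16 and 0.26 in PM2.5 and 0.03, 0.05 and 0.18 in filtered air, and cumulus cells had 4.16, 3.59 and 3.79 in PM2.5 and 3.82, 4.14 and 4.53 in filtered air. Blastocysts and cumulus cells overlapped, and both were far above oocytes. The difference between blastocysts and oocytes was 4.05 in PM2.5 and 4.28 in filtered air (SE 0.26 each; limma adjusted p = 9.22e-11 and 4.35e-11), and between oocytes and cumulus cells it was -3.69 and -4.07 (limma adjusted p = 3.45e-10 and 9.23e-11). Between blastocysts and cumulus cells it was 0.36 in PM2.5 and 0.20 in filtered air, with intervals of -0.18 to 0.90 and -0.34 to 0.74 and no call (limma adjusted p = 0.226 and 0.497). Yap1 made up 24.7% to 28.8% of the summed linear values of the pair in PM2.5 blastocysts and 16% to 31.8% in filtered-air blastocysts. In oocytes it made up at least 99.7% in both exposure groups, and in cumulus cells 24.9% to 34.6% in PM2.5 and 16.7% to 25.4% in filtered air.

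The genes of the LATS kinases, which phosphorylate YAP and TAZ, were highest in cumulus cells. They are Lats1 (chr10:7681200-7716461) and Lats2 (chr14:57689662-57746212). Lats1 stood at 1.58, 1.31 and 0.97 in PM2.5 blastocysts and at 1.38, 0.90 and 1.35 in filtered-air blastocysts. Oocytes had 1.15, 1.21 and 1.5 in PM2.5 and 1.16, 1.38 and 1.01 in filtered air, and cumulus cells had 3.81, 3.47 and 3.52 in PM2.5 and 3.86, 3.86 and 4.09 in filtered air. Blastocysts and oocytes overlapped, and every cumulus library was above both. Lats1 was lower in blastocysts than in cumulus cells, by a difference of -2.31 in PM2.5 and -2.73 in filtered air (SE 0.18 each; limma adjusted p = 6.32e-09 and 6.94e-10), and lower in oocytes than in cumulus cells by differences of -2.32 and -2.75 (limma adjusted p = 2.09e-09 and 2.06e-10). The difference between blastocysts and oocytes was 0.00 in PM2.5 and 0.02 in filtered air as deposited. Quantile normalization turned it to a called -0.86 in PM2.5 and -0.78 in filtered air (limma adjusted p = 0.000352 and 0.00084), so no direction is read from it.

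Lats2 separated all 3 tissues. Blastocysts had 2.53, 2.31 and 2.58 in PM2.5 and 2.60, 3.39 and 2.36 in filtered air, and oocytes had 0.34, 1.13 and 0.51 in PM2.5 and 0.33, 0.57 and 0.51 in filtered air. Cumulus cells were highest, with 3.99, 3.57 and 3.49 in PM2.5 and 3.97, 4.03 and 4.02 in filtered air. The ranges of the tissues did not meet. The difference between blastocysts and oocytes was 1.82 in PM2.5 and 2.31 in filtered air (SE 0.24 each; limma adjusted p = 1.92e-06 and 9.10e-08), and 0.96 and 1.54 after quantile normalization, still past the threshold. Against cumulus cells, blastocysts differed by -1.20 in PM2.5 and -1.22 in filtered air (limma adjusted p = 0.000306 and 0.000264) and oocytes by -3.02 and -3.53 (limma adjusted p = 2.53e-09 and 3.15e-10). Across all genes tested, the median difference was 0.62 in PM2.5 and 0.59 in filtered air between blastocysts and oocytes, and -0.48 and -0.45 between oocytes and cumulus cells. Quantile normalization brought these medians to 0.12 and 0.12, and to -0.03 and -0.04.

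Amotl2 (chr9:102717091-102733418) and Nf2 (chr11:4757639-4849544) act upstream of the LATS kinases. Amotl2, an angiomotin that holds YAP at cell junctions, split the blastocyst libraries within each group. It stood at 0.18, 3.08 and 2.79 in PM2.5 blastocysts and at 0.16, 0.50 and 2.73 in filtered-air blastocysts. One PM2.5 library and a pair of filtered-air libraries were therefore near the oocyte level, which was 0.02 to 0.03 in PM2.5 and 0.01 to 0.16 in filtered air. Cumulus cells held a narrow range, with 2.60, 2.07 and 2.14 in PM2.5 and 2.27, 1.99 and 2.04 in filtered air. The trophectoderm marker mean of the same blastocyst libraries was 7.02, 6.33 and 6.58 in PM2.5 and 6.98, 7.03 and 6.64 in filtered air, and its part in the Amotl2 values was not tested. Oocytes were below cumulus cells by differences of -2.25 in PM2.5 and -2.04 in filtered air (SE 0.66 each, no filter; limma adjusted p = 0.00821 and 0.0149). That SE is taken from all 18 libraries, among them the split blastocysts (SD 1.60 in PM2.5 and 1.39 in filtered air). It is not the spread of the tissues compared, with SDs of 0.008 and 0.083 in oocytes and 0.29 and 0.15 in cumulus cells, PM2.5 first. The difference between blastocysts and oocytes passed in PM2.5 (1.99, limma adjusted p = 0.0172) and not in filtered air (1.07, limma adjusted p = 0.190). The filtered-air value ranged from 0.27, without filtered-air blastocyst replicate 3, to 1.55, without replicate 1. The PM2.5 call was lost without PM2.5 blastocyst replicate 2 (1.46, limma adjusted p = 0.0913) or replicate 3 (1.6, limma adjusted p = 0.0774). Blastocysts and cumulus cells differed by -0.25 in PM2.5 and -0.97 in filtered air (limma adjusted p = 0.862 and 0.273), and the filtered-air value was called at -1.77 without filtered-air blastocyst replicate 3 (limma adjusted p = 0.0266).

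Nf2, which encodes the tumour suppressor merlin that recruits LATS to the membrane, was present in all 3 tissues. Blastocysts had 2.45, 2.94 and 2.87 in PM2.5 and 2.88, 2.59 and 3.41 in filtered air. Oocytes had 2.76, 3.15 and 3.37 in PM2.5 and 1.28, 2.98 and 1.26 in filtered air, and cumulus cells had 2.05, 2.25 and 2.34 in PM2.5 and 2.41, 2.08 and 2.04 in filtered air. The filtered-air oocytes split, with replicate 2 inside the PM2.5 range and the other two below every other library of the series. Without a filter, blastocysts were above oocytes by 1.12 in filtered air (SE 0.36; limma adjusted p = 0.0155), a call lost under quantile normalization (0.64, limma adjusted p = 0.143) and in 3 of 18 left-out fits, where the value ranged from 0.83 to 1.69. They differed by -0.34 in PM2.5 (limma adjusted p = 0.470). Oocytes were above cumulus cells by 0.88 in PM2.5 (limma adjusted p = 0.0498) and differed by -0.34 in filtered air (limma adjusted p = 0.481), a value that turned to 0.16 under quantile normalization. The PM2.5 value was 1.38 under quantile normalization (limma adjusted p = 0.00355). As deposited, its call lies at the threshold and was lost when any of 13 of the 18 libraries was left out. Where such a library belongs to neither group, the value stayed at 0.88, and the p-value moved through the shared fit. Between blastocysts and cumulus cells, Nf2 was called in neither exposure group (0.54 in PM2.5 and 0.79 in filtered air, limma adjusted p = 0.270 and 0.1). Every blastocyst library was still above every cumulus library of its exposure group. Without filtered-air oocyte replicate 2, the library at 2.98, the filtered-air oocytes were called below cumulus cells (-0.91, limma adjusted p = 0.0049). The filtered-air blastocysts were then called above the cumulus cells (0.79, limma adjusted p = 0.0085). That contrast holds no oocyte library, and its value was unchanged, so the p-value moved through the shared fit.

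**Figure D3:**
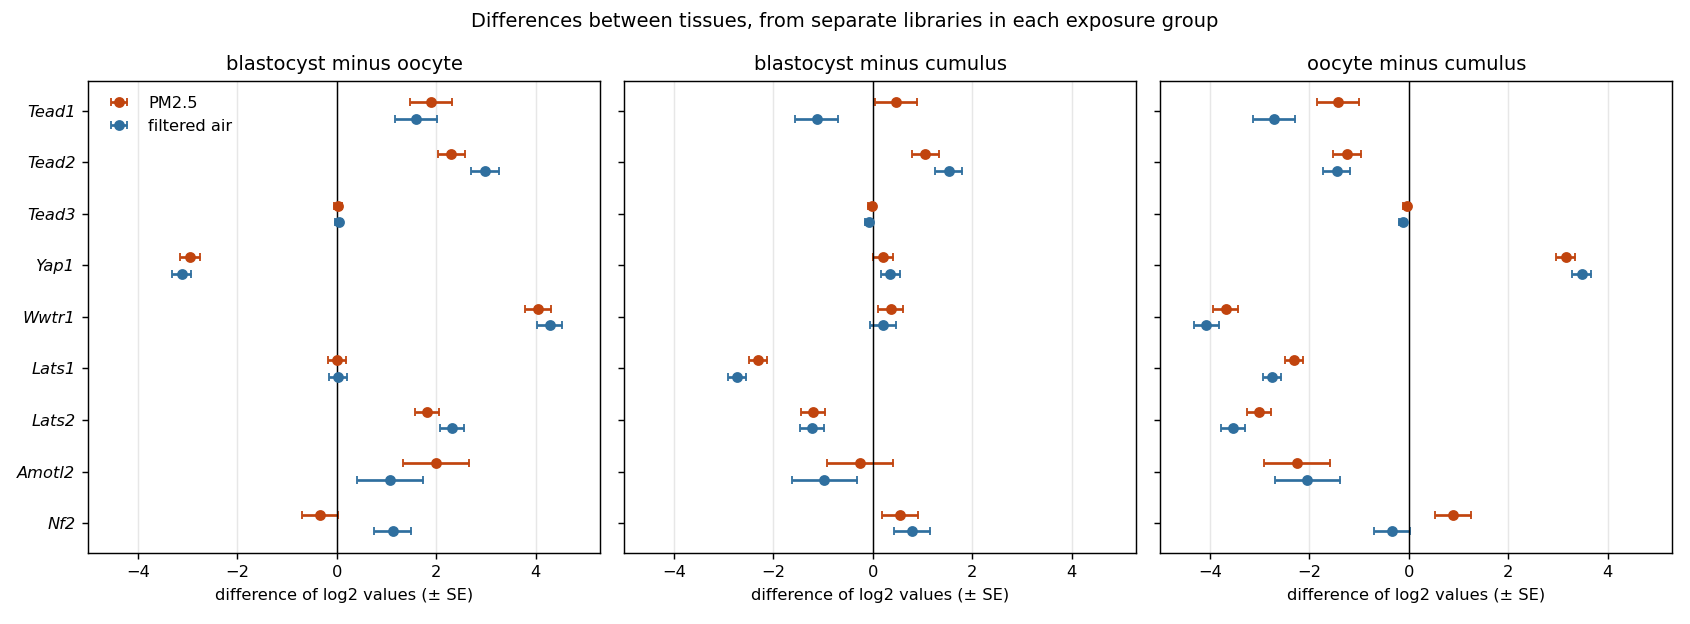
Differences between tissues for 9 members (Tead4 is left out, as it was listed at 0 in 2 tissues), with the standard error of the fit without a filter on low values. PM2.5 points stand above filtered-air points. Yap1 and Wwtr1 point in opposite directions against oocytes in both exposure groups, at -2.95 and 4.05 in PM2.5 and -3.12 and 4.28 in filtered air.

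Promoter sequence was examined for the coactivator genes, which ran in opposite directions, and for the upstream genes Amotl2 and Lats2, which are known targets of YAP as well as its regulators. The windows are from RefSeq on GRCm38.p6 (mm10) and run from 250 bases before to 50 bases after an annotated start, in the direction of transcription. Capitals mark the TEAD core motif GGAATG, or CATTCC where it lies on the other strand. Both strands were searched. The Yap1 window is chr9:8004547-8004846 on the minus strand, the Wwtr1 window chr3:57575861-57576160 on the minus strand, the Amotl2 window chr9:102717554-102717853 on the plus strand and the Lats2 window chr14:57746074-57746373 on the minus strand.
Yap1: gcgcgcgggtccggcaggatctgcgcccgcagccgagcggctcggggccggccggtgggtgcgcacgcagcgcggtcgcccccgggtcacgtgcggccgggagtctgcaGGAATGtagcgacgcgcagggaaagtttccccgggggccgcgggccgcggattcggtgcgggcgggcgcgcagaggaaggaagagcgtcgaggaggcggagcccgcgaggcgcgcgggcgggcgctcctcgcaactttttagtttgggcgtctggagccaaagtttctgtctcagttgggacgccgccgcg
Wwtr1: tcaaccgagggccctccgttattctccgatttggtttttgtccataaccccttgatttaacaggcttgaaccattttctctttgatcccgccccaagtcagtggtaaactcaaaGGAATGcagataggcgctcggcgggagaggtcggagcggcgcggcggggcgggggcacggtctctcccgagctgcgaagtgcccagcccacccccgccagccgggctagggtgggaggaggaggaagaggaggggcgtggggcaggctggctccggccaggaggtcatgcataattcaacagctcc
Amotl2: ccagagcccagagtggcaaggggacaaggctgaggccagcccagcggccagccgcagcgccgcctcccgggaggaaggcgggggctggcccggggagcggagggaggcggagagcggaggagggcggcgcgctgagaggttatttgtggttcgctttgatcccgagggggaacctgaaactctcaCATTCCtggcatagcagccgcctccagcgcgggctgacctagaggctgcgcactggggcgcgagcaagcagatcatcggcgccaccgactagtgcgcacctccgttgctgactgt
Lats2: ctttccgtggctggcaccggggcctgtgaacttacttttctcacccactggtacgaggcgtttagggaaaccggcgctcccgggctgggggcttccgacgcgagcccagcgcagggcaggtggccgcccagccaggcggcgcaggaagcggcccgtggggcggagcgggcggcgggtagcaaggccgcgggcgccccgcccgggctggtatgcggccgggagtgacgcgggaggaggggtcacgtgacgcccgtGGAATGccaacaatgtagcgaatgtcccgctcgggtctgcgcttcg
Each of these windows held 1 copy of the motif. Counted from the start, it began at -141 in Yap1, at -136 in Wwtr1, at -65 in Amotl2 (other strand) and at 4 in Lats2. The 8 members with a window had 13 windows in all, and 7 of these held the motif: 2 of Wwtr1 (which overlap and share the same copy), 2 of the 3 of Tead3, and 1 each of Yap1, Amotl2 and Lats2. The second Lats2 window (chr14:57734369-57734668) held none. The motif was in 14.7% of all 32851 promoter windows of this length. A match describes the letters only, and no binding was measured in these samples. Tead1 and Tead4 had no window.

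PM2.5 exposure gave no called change in any of the 10 genes in any tissue. In blastocysts Tead2, Tead4 and Wwtr1 passed the filter on low values, in oocytes Yap1 did, and in cumulus cells Wwtr1, Lats1 and Lats2 did. None of these was called (limma, Benjamini-Hochberg adjusted p under 0.05), where 0% of 4834 blastocyst genes, 0.221% of 4080 oocyte genes and 0.167% of 4780 cumulus genes were. Without a filter, 0 of 10, 0 of 9 and 0 of 9 members tested were called, beside 0.00585%, 0.0468% and 0.0291% of all genes. At an unadjusted p under 0.05 without a filter, no member passed in blastocysts or cumulus cells, where 4.83% and 12.9% of all genes did, and Nf2 alone passed in oocytes, where 6.38% did. The share called in cumulus cells was 11.7% without PM2.5 replicate 1 and 0.293% without filtered-air replicate 1, and neither the members that passed the filter nor Nf2 in oocytes, Tead1 and Yap1 in cumulus cells or Amotl2 in blastocysts were called when 1 library was left out. A miss does not show that a gene stayed the same, and the intervals give what the data allow.

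**Figure D4:**
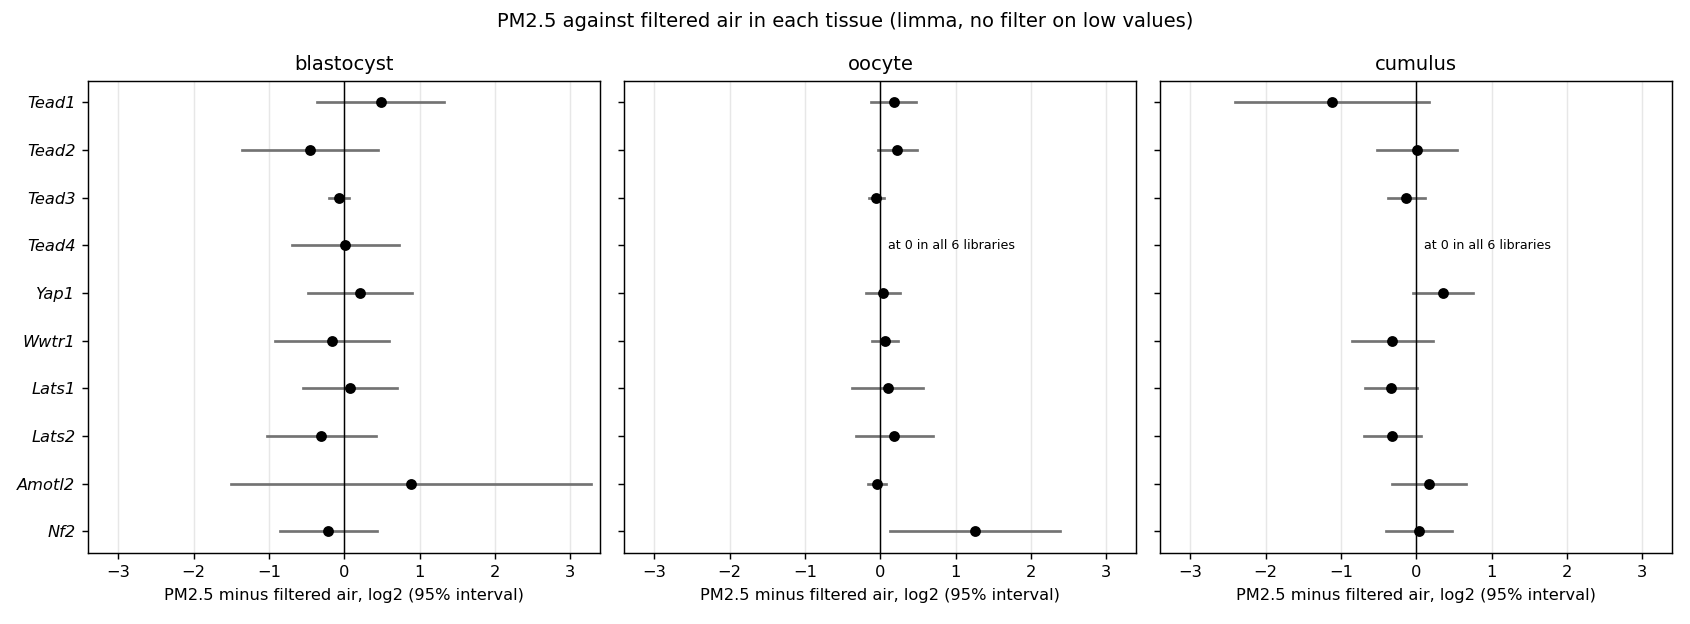
Difference between PM2.5 and filtered air for each member in each tissue, with its 95% interval, from the fit without a filter on low values. The interval of Yap1 in oocytes is narrow, that of Amotl2 in blastocysts runs from -1.5 to 3.28, and Nf2 in oocytes alone has an interval that leaves out 0 before adjustment.

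In blastocysts, Tead4 differed between PM2.5 and filtered air by 0.01 (SE 0.27, 95% interval -0.60 to 0.63), Tead2 by -0.45 (SE 0.34, -1.23 to 0.32) and Wwtr1 by -0.16 (SE 0.29, -0.82 to 0.49), all at a limma adjusted p of 0.998. The libraries of both groups overlapped for all 10 members, where 9.46% of all genes did not overlap. The sign of the Tead4 and Wwtr1 differences turned when single libraries were left out. Amotl2, with the split described above, differed by 0.89 (SE 0.99, 95% interval -1.5 to 3.28, limma adjusted p = 1), and by 0.35 to 1.81 when 1 library was left out (lowest without PM2.5 replicate 2, highest without PM2.5 replicate 1). The other 6 members had differences between -0.31 and 0.48.

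In oocytes, Yap1 differed by 0.04 (SE 0.10, 95% interval -0.20 to 0.27, limma adjusted p = 0.940), the tightest estimate among the members that passed the filter. Nf2 differed by 1.25 (SE 0.47, 95% interval 0.12 to 2.38), with an unadjusted p of 0.0346 and a limma adjusted p of 0.770. Its groups overlapped, because filtered-air replicate 2 lay inside the PM2.5 range. Tead1 was the one member whose oocyte groups did not overlap, at 0.59 to 0.85 in PM2.5 and 0.40 to 0.58 in filtered air, where 12.6% of all genes did not overlap. Its difference was 0.18 (limma adjusted p = 0.828).

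In cumulus cells, Lats1 and Yap1 had groups that did not overlap, where 18.4% of all genes did not. Lats1 differed by -0.34 (SE 0.16, 95% interval -0.70 to 0.02, limma adjusted p = 0.227) and Yap1 by 0.36 (SE 0.17, -0.04 to 0.76, limma adjusted p = 0.417). Lats2 differed by -0.32 (SE 0.17, limma adjusted p = 0.259), with PM2.5 replicate 1 inside the filtered-air range, and Wwtr1 by -0.32 (SE 0.23, limma adjusted p = 0.381). Tead1 differed by -1.12 (SE 0.54, limma adjusted p = 0.428), which shrank to -0.47 without PM2.5 replicate 2. Markers of other cells also separated the cumulus groups at low levels. The mean of 6 stromal and smooth muscle genes was 0.785 to 0.902 in PM2.5 and 0.539 to 0.606 in filtered air, and that of 4 oviduct genes was 0.297 to 0.599 and 0.082 to 0.143, with Foxj1 at 0 in both groups and Pax8 at 0 in filtered air. Col1a1, Col1a2, Col3a1 and Acta2 were higher in each PM2.5 library than in any filtered-air library, while the means of Dcn (0.040 in PM2.5 and 0.078 in filtered air) and Tagln (0.560 and 0.614) were not higher in PM2.5. The oviduct means differed through Ovgp1 (1.45 in PM2.5 and 0.111 in filtered air), with Epcam at 0.365 and 0.355. No gene of these lists reached a mean of 3. The leukocyte mean was 2.9 to 3.61 in PM2.5 and 3.52 to 3.54 in filtered air, although its gene S100a9 was lower in each PM2.5 library (0, 0 and 1.83) than in any filtered-air library (2.06, 3.33 and 3.96). The mean of 4 hemoglobin genes was 0.442, 7.30 and 1.24 in PM2.5 and 5.77, 0.460 and 7.64 in filtered air. The part of these cells in the member values was not tested.

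Whether the difference between PM2.5 and filtered air itself differed between tissues was tested as a difference of differences, and no member was called. Of 9 members tested without a filter, 0 were called for blastocysts against oocytes (0.0232% of all genes), 0 for blastocysts against cumulus cells (0.186%) and 0 for oocytes against cumulus cells (0.26%). At an unadjusted p under 0.05 the members were Nf2 for blastocysts against oocytes, Tead1 for blastocysts against cumulus cells, and both for oocytes against cumulus cells, where 6.95%, 13.8% and 11.1% of all genes passed that level. The smallest unadjusted p was that of Nf2 for blastocysts against oocytes, with a difference of -1.46 (SE 0.52, unadjusted p of 0.0131, limma adjusted p = 0.525). For Tead1, blastocysts against cumulus cells gave 1.60 (SE 0.60, unadjusted p of 0.0186, limma adjusted p = 0.268). Without filtered-air oocyte replicate 2, the one high library of its group, the Nf2 value was -2.03 and passed (limma adjusted p = 0.0447). The Tead1 value ranged from 0.95, without PM2.5 cumulus replicate 2, to 2.04, without PM2.5 cumulus replicate 1.

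Beyond the 10 members, 110 further genes of the pathway were listed, from the upstream kinases to the target genes. Between tissues most of those that passed the filter differed. Blastocysts differed from oocytes in 60 of 72 in PM2.5 (35 higher, 25 lower) and 62 of 72 in filtered air (36 higher, 26 lower), which is 83.3% and 86.1%, where 88.1% and 87.9% of all tested genes differed (51.3% and 50.8% higher, 36.7% and 37.2% lower). Blastocysts differed from cumulus cells in 51 of 72 in PM2.5 and 53 of 72 in filtered air (70.8% and 73.6%). Of all tested genes 68.1% in PM2.5 and 69.3% in filtered air did, 36% and 38.7% higher and 32.1% and 30.6% lower. Oocytes differed from cumulus cells in 57 of 72 in PM2.5 and 54 of 72 in filtered air (79.2% and 75%, against 88.1% and 87.7%). The first 4 shares lie within 5 percentage points of those of all genes, and the last 2 lie further below them.

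Among the upstream kinases and adaptors of LATS, 4 of 7 tested were lower in blastocysts than in oocytes and 2 were higher, in both exposure groups. Of all tested genes, 36.7% in PM2.5 and 37.2% in filtered air were lower in blastocysts, and 51.3% and 50.8% higher. Stk3, which encodes the LATS-activating kinase MST2, stood at 2.87 ± 0.58 in PM2.5 and 2.5 ± 0.30 in filtered-air blastocysts, against 5.65 ± 0.10 in PM2.5 and 5.97 ± 0.35 in filtered-air oocytes (SD, n = 3 each). The kinase gene Taok3, whose family acts on the MST kinases, was at or below 0.18 in every blastocyst library and had 4.90 ± 0.13 in PM2.5 oocytes and 4.69 ± 0.20 in filtered-air oocytes. Mob1a, a cofactor of LATS, went the other way, with 4.68 ± 0.17 in PM2.5 and 4.68 ± 0.23 in filtered-air blastocysts and 2.68 ± 0.06 and 2.81 ± 0.14 in PM2.5 and filtered-air oocytes. Sav1, the scaffold of the MST kinases, was below 3 in every blastocyst and oocyte library and highest in cumulus cells, at 4.91 ± 0.13 in PM2.5 and 4.66 ± 0.13 in filtered air, as were Lats1 and Lats2.

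Of the scaffolds and polarity genes, Wwc2, which encodes a KIBRA relative, was lower in blastocysts than in oocytes by a difference of -3.72 in PM2.5 and -3.5 in filtered air (SE 0.13 each, limma adjusted p = 2.50e-14 and 5.68e-14). The apical kinase gene Prkcz was high in blastocysts, at 3.63 ± 0.15 in PM2.5 and 3.52 ± 0.26 in filtered air, and at or below 0.21 in every oocyte and cumulus library. Pard6b, its polarity partner, was at 4.62 ± 0.04 and 4.73 ± 0.22 in PM2.5 and filtered-air blastocysts and at 5.41 ± 0.08 and 5.41 ± 0.20 in PM2.5 and filtered-air oocytes, and was below 2 in cumulus cells. Ezr, the apical linker of membrane and actin, was lowest in oocytes, at 1.88 ± 0.17 in PM2.5 and 1.45 ± 0.04 in filtered air, and highest in cumulus cells, at 6.72 ± 0.05 and 7.0 ± 0.07. Among the VGLL cofactors, which bind TEAD proteins, Vgll3 was 4.78 ± 0.29 in PM2.5 and 4.83 ± 0.17 in filtered-air blastocysts and at or below 0.39 in all other libraries.

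**Figure D5:**
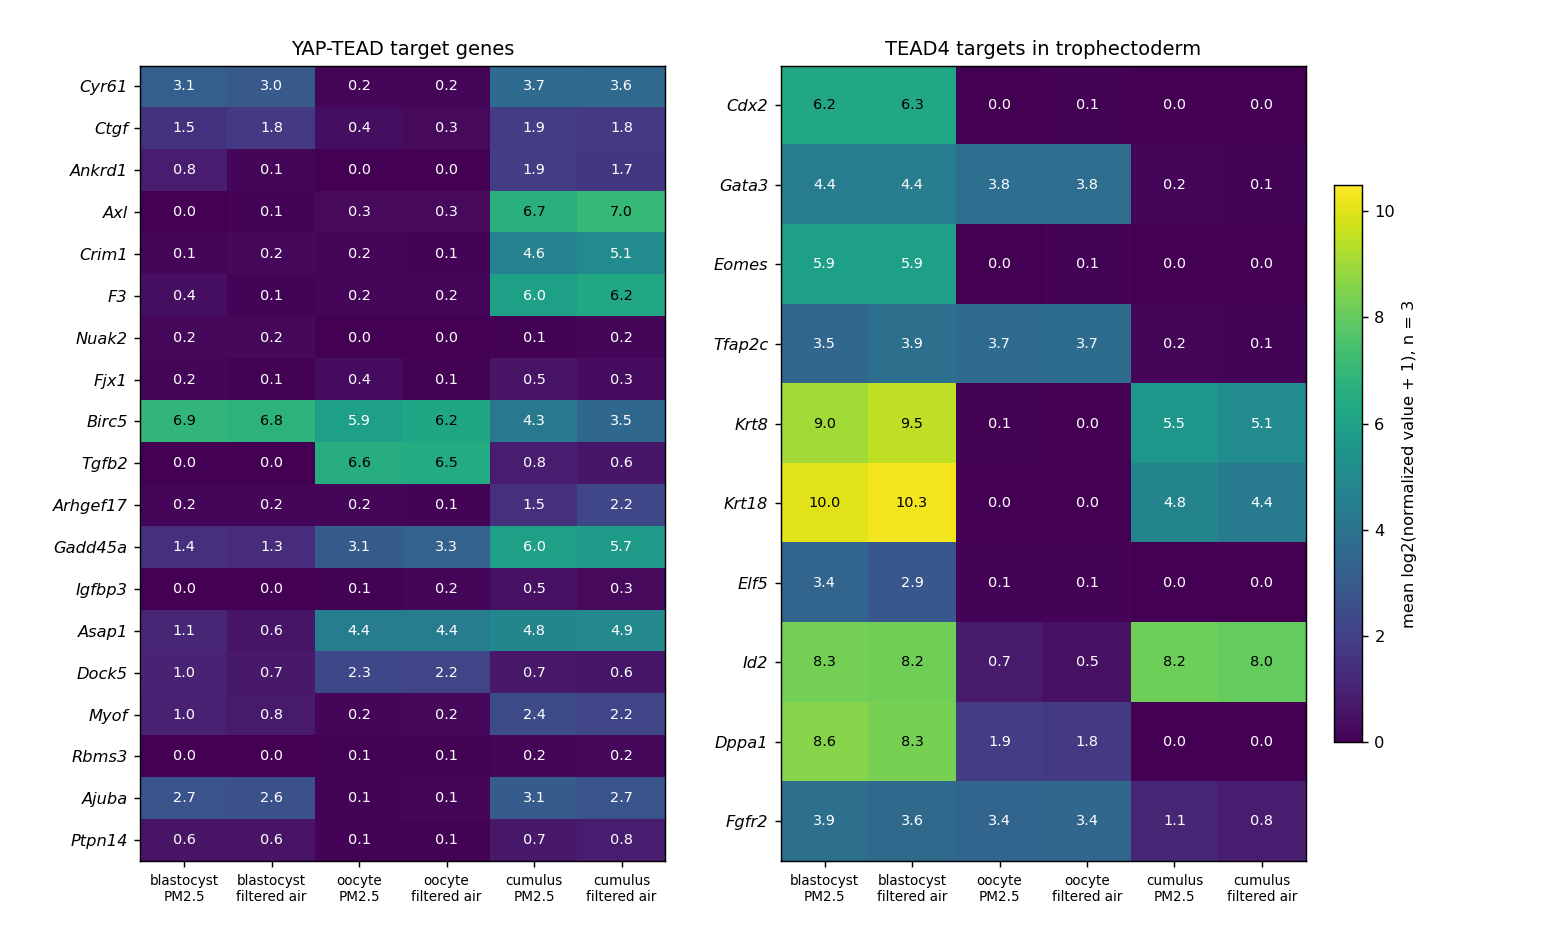
Mean level of 19 genes known as YAP and TEAD targets (left) and of 10 genes known as TEAD4 targets in trophectoderm (right), in each group of 3 libraries, with PM2.5 left of filtered air. The colour and the printed number are the mean log2(normalized value + 1). Axl, F3 and Crim1 are high in cumulus cells, and Krt8, Krt18, Cdx2 and Eomes in blastocysts.

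The target genes of YAP and TEAD did not move as 1 group between tissues. Of 19 listed, 8 passed the filter and were tested. Of these 8, 2 were higher and 3 lower in blastocysts than in oocytes in both exposure groups. Against cumulus cells, 1 was higher and 6 lower in blastocysts. Axl and F3 reached the mean of 3 needed for testing in cumulus cells alone, so a lower blastocyst value was set in advance for both. Of all tested genes, 51.3% in PM2.5 and 50.8% in filtered air were higher in blastocysts than in oocytes, and 36.7% and 37.2% lower. Against cumulus cells, 36% in PM2.5 and 38.7% in filtered air were higher in blastocysts, and 32.1% and 30.6% lower. Axl, a receptor tyrosine kinase, was at or below 0.39 in all blastocyst and oocyte libraries and stood at 6.66 ± 0.13 in PM2.5 and 7.04 ± 0.13 in filtered-air cumulus cells. F3, the gene of tissue factor, had at most 0.90 in blastocysts and oocytes and 5.97 ± 0.49 in PM2.5 and 6.25 ± 0.12 in filtered-air cumulus cells. The matricellular gene Cyr61 was 3.14 ± 0.64 in PM2.5 and 2.95 ± 0.41 in filtered-air blastocysts, at or below 0.28 in oocytes, and 3.67 ± 0.54 and 3.60 ± 0.22 in PM2.5 and filtered-air cumulus cells. Tgfb2, a growth factor gene, was at or near 0 in blastocysts and stood at 6.55 ± 0.21 in PM2.5 and 6.48 ± 0.19 in filtered-air oocytes. The oocytes, with the highest Yap1, had Cyr61 at or below 0.28, Axl at or below 0.39, F3 at or below 0.90 and Tgfb2 high. Of the 8 tested, 2 were higher in oocytes than in cumulus cells in both exposure groups. Lower were 5 in PM2.5 and 6 in filtered air. Of all tested genes, 88.1% in PM2.5 and 87.7% in filtered air differed in either direction. A relation of these targets to Yap1 was not tested.

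Genes known as TEAD4 targets in trophectoderm were mostly blastocyst transcripts, a list drawn up with that tissue in mind. Of 10 tested, 9 were higher in PM2.5 blastocysts than in PM2.5 oocytes and 8 in the filtered-air libraries, and 9 were higher than in cumulus cells in both exposure groups. None of the 10 was called lower. A gene was tested if its mean reached 3 in at least 1 tissue, and some, such as Cdx2, reached it in blastocysts alone. For such genes a higher blastocyst value was set in advance by the filter, so the counts are a description only. Of all tested genes, 51.3% in PM2.5 and 50.8% in filtered air were higher in blastocysts than in oocytes. Against cumulus cells, 36% in PM2.5 and 38.7% in filtered air were. Of the 5 inner cell mass genes opposed to TEAD4, 4 were tested. All 4 were higher in blastocysts than in oocytes and than in cumulus cells in both exposure groups. The direction is shared by both lists. Nanog also passed the filter through blastocysts alone, at 5.86 in PM2.5 and 5.67 in filtered air, so its direction was set by the filter too. Cdx2, the trophectoderm regulator, stood at 6.24 ± 0.42 in PM2.5 and 6.30 ± 0.10 in filtered-air blastocysts and was listed at 0 in all 6 cumulus libraries. Gata3 and Tfap2c were also present in oocytes, Gata3 at 3.84 ± 0.12 in PM2.5 and 3.76 ± 0.20 in filtered air and Tfap2c at 3.68 ± 0.18 and 3.72 ± 0.18, while Tead4 was at 0 there. Id2 was high in blastocysts, at 8.29 ± 0.11 in PM2.5 and 8.21 ± 0.31 in filtered air, and in cumulus cells, at 8.17 ± 0.24 and 8.01 ± 0.12.

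For PM2.5 against filtered air, 0 of these further genes were called: 0 of 48 tested in blastocysts, 0 of 44 in oocytes and 0 of 42 in cumulus cells. At an unadjusted p under 0.05 there were 4, 2 and 9, where 3.95%, 8.33% and 23.3% of all tested genes passed that level. The E-cadherin gene Cdh1 differed in blastocysts by -2.63 (SE 0.93, limma adjusted p = 0.998). Its libraries split, with 2.29, 6.03 and 1.4 in PM2.5 and 5.93, 5.87 and 5.84 in filtered air. Elf5, a trophoblast transcription factor, had 3.4, 3.24 and 3.60 in PM2.5 blastocysts and 3.13, 2.80 and 2.61 in filtered-air blastocysts, which do not overlap, as 9.46% of all blastocyst genes do not (difference 0.56, SE 0.22, limma adjusted p = 0.998). Pou5f1, the gene of the pluripotency factor OCT4, did not overlap in the other direction, at 4.75, 4.82 and 4.81 in PM2.5 and 5.22, 5.05 and 5.33 in filtered-air blastocysts (difference -0.41, SE 0.15, limma adjusted p = 0.998). Their lists did not move with these 2 genes. Of the 10 TEAD4 targets, 6 were higher in PM2.5 blastocysts, with a median difference of 0.01. Of the 4 inner cell mass genes tested, 2 were higher, with a median of 0.06. Of all tested genes, 47.6% were higher. In cumulus cells the smallest adjusted p was that of the kinase gene Taok1 (difference -0.76, SE 0.18) and of Birc5, the gene of survivin (0.72, SE 0.15), both at a limma adjusted p of 0.176.

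The genes with patterns most like each member were taken as those with the smallest root-mean-square difference of centred values over the 18 libraries, among 6943 genes. This is a description without a test. Vgll3 was closest to Tead4 (0.18 log2 units), followed by Plet1, a trophoblast surface gene (0.23). Fam69b (0.20) and Nfya, a subunit of the CCAAT-binding factor NF-Y (0.21), were closest to Yap1, with Nfya at 4.05 ± 0.15 in PM2.5 and 3.92 ± 0.09 in filtered-air oocytes and at or below 1.34 elsewhere. Serinc5 (0.25) was closest to Lats1 and Gmpr2 (0.26) to Lats2. Tatdn1 (0.26) was closest to Wwtr1, Nsun2 (0.28) to Tead2 and Cbfb (0.47) to Tead1. For Tead3, which stayed at or below 0.30 in all 18 libraries, Tsn (0.16) was closest. That distance reflects little variation and not a shared pattern. Mrpl9 (0.41) was closest to Nf2 and Elovl1 (0.59) to Amotl2.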

How the data were processed

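RNA was measured in 18 libraries, per the labels' protocols after direct lysis and reverse transcription, addition of a poly(A) tail with terminal transferase, 18 to 20 amplification cycles and paired-end 125 bp sequencing. The authors deposited 1 table of log2 values, log2(x + 1) of a normalized count. Per the submitters' processing notes, FastQC, Cuffnorm, DESeq 1.22.1 and the mm10 build were used, with no roles named. For the aligner and the annotation, no name is given in the sources used here. Depth is unknown, and read counts could not be recovered from low values, so no count model was run.

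Groups came from the labels. Tests used limma 3.58.1 in R 4.3.3 (lmFit, eBayes with a trend), two-sided, with Benjamini-Hochberg adjustment over all tested genes and a threshold of 0.05. PM2.5 was compared with filtered air on the 6 libraries of a tissue, for genes with a mean of at least 3 and at least 3 libraries above 0. Tissues were compared in 1 fit of 18 libraries, for genes with a mean of at least 3 in 1 tissue. Members under the filter have values from a fit without it. The models were tested on simulated data. Pseudocount, filter, scaling, replicate block and left-out libraries were varied. Named genes are all members, up to 3 genes per direction of each other list with the smallest adjusted p (or the 1 with the smallest p), and the 2 closest genes of each member. Some levels of other listed genes were chosen after their values were seen. Members and lists were chosen with earlier results of these data known. Promoters are RefSeq windows on GRCm38.p6.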

Additional observations from a re-analysis of the deposited data

How the results depend on the processing

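Between tissues, some calls kept direction and threshold under every alternative in which the gene was tested. They were those of Tead4, Yap1, Wwtr1 and Lats2 against oocytes, and of Tead2, Tead4, Lats1 and Lats2 for blastocysts against cumulus cells. With the filter at a mean of 5, Yap1 alone of these genes was tested. Lats1 between blastocysts and oocytes was -0.008 in PM2.5 at log2(x + 0.1), and -0.855 in PM2.5 and -0.775 in filtered air after quantile normalization, where Nf2 between oocytes and cumulus cells was 0.159 in filtered air. Nf2 between oocytes and cumulus cells in PM2.5 lost its call at log2(x + 0.1) (1.03, limma adjusted p = 0.0618), as did Tead1 between blastocysts and cumulus cells in filtered air (-1.34, limma adjusted p = 0.0785). The member values refitted for PM2.5 (those that passed the filter, Nf2 in oocytes, Tead1 and Yap1 in cumulus cells and Amotl2 in blastocysts) were called under none of the alternatives in which they were tested.

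The share of all genes called moved more. For PM2.5 it was 0.00585% in blastocysts, 0.0468% in oocytes and 0.0291% in cumulus cells with no filter, and 0.0414%, 0.637% and 2.18% with all 18 libraries in 1 fit. With a filter at a mean of 5 it was 0.255% in cumulus cells. For the difference of responses between blastocysts and cumulus cells it was 0.0575% at log2(x + 0.1), 0.604% at log2(x + 4) and 0.473% with the filter at 5. Between blastocysts and oocytes it was 0.0232% with no filter, 0.439% with the filter at 5 and 0.0974% after quantile normalization, and between oocytes and cumulus cells 0.148% after quantile normalization. With no filter, 58.3% in PM2.5 and 58.2% in filtered air differed between blastocysts and oocytes, and 43.7% and 43.7% between blastocysts and cumulus cells, where more low genes are tested. The cause of the other moves was not tested.

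Deviations from the group means correlated by -0.155 to 0.11 between same-numbered PM2.5 and filtered-air libraries and by 0.027 to 0.096 between same-numbered PM2.5 oocyte and cumulus libraries. In no pair of groups were all 3 values above 0.1, so the numbers were not taken to pair libraries, which does not show that nothing is shared. With the replicate block the share was 0.0735% in oocytes, 0.0628% in cumulus cells and 0.0493% for the response of oocytes against cumulus cells, and Nf2 between oocytes and cumulus cells in PM2.5 was 0.881 (limma adjusted p = 0.0535).

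When 1 library was left out, the PM2.5 share ranged from 0% to 0.0827% in blastocysts, 0.049% to 0.27% in oocytes and 0.126% to 11.7% in cumulus cells (559 genes without PM2.5 replicate 1). The response share ranged from 0% to 0.341% for blastocysts against oocytes, 0.115% to 2.59% for blastocysts against cumulus cells and 0.0493% to 3.21% for oocytes against cumulus cells, the last 2 highest without PM2.5 cumulus replicate 1. Uncalled values that changed sign were Tead4 (-0.253 to 0.235) and Wwtr1 (-0.428 to 0.066) for PM2.5 in blastocysts and Yap1 (-0.016 to 0.096) for PM2.5 in oocytes. Lats1 between blastocysts and oocytes ran from -0.143 to 0.161 in PM2.5 and -0.06 to 0.177 in filtered air. Between blastocysts and cumulus cells, Wwtr1 in filtered air ran from -0.026 to 0.425, Yap1 in PM2.5 from -0.09 to 0.359, Tead1 in PM2.5 from -0.18 to 0.905 and Amotl2 in PM2.5 from -0.785 to 0.666. The Wwtr1 response of blastocysts against cumulus cells ran from -0.11 to 0.384. Depth is unknown, so no floor can be set for genes listed at 0.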
